A study of Danio rerio with 12 samples.

Results

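Semaphorins and their receptors, the plexins and neuropilins, were followed in sorted heart cells of zebrafish embryos. The members were all genes of the count tables whose symbol starts with sema and a number, plxn, nrp1 or nrp2, taken without regard to capitals, which gave 47 of 27191 genes. They comprised 29 ligands, of which 12 were class 3, 8 class 4, 3 class 5, 5 class 6 and 1 class 7 semaphorins, and 18 receptors, namely 4 neuropilins, 5 class A plexins, 7 class B plexins, 1 class C plexin and 1 class D plexin. For 23 members a zebrafish symbol was at hand, and the other 24 are given with the symbol of the human gene in capitals. Where genes shared such a symbol, the last digits of the Ensembl identifier were added, as in *NRP2-38446* and *NRP2-96546*, which could not be assigned to *nrp2a* or *nrp2b*.

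Semaphorins are guidance cues that steer growing axons, blood vessels and migrating crest cells. Class 3 members are secreted, and most of them bind a neuropilin that has no signalling domain of its own and acts together with a plexin, whereas the other vertebrate classes are anchored to the membrane and largely bind plexins directly. Plexins act on small GTPases and so on adhesion and the actin cytoskeleton, and neuropilins are also co-receptors of VEGF. In the mouse, *Sema3c*, *Nrp1* and *Plxnd1* are needed for septation of the outflow tract, and in zebrafish *plxnd1* guides the sprouting of trunk vessels.

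All 12 libraries came from dissociated hearts of the enhancer trap line *sqet31Et*, pooled from many embryos with no other treatment, and 3 libraries each were made from GFP+ and GFP− cells at 72 hpf (written 72 pf in the labels) and from GFP+ and GFP− cells at 48 hpf. In this line a Tol2 insertion, not mapped to a site, drives EGFP through a basic promoter of *krt4*. The fluorescence marks mainly the myocardium of the atrioventricular canal (AVC), together with the bulbus arteriosus (BA) at 72 hpf and, weakly, some other myocardial cells. Sort gates were set on wild type hearts of the same stage, and GFP− holds the remaining cells of the same preparations.

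Counts per library ran from 20530602 to 62359004, and 23222 genes, all 47 members among them, passed edgeR's filter on low counts. Replicate 1 of GFP− at 72 hpf stood apart. Its 10 most counted genes took 21.0% of its counts, its TMM factor was 0.575, its red blood cell markers summed to 28860 CPM against 3950 and 2864 CPM in the other 2 libraries of its group, and the members took 0.0234% of its counts against 0.102 to 0.283% elsewhere. Of the 47 members, 43 had the lowest value of their group in this library. Markers of other cell types also differed between the fractions. Neuron markers, 12 genes, summed to 219 to 324 CPM in GFP+ and 903 to 1881 CPM in GFP− cells at 72 hpf, and to 522 to 747 CPM in GFP+ and 4053 to 6774 CPM in GFP− cells at 48 hpf. The GFP− fraction at 48 hpf held little message of heart muscle, with 10 cardiomyocyte markers summing to 63.3 to 248 CPM, against 2593 to 4957 CPM in GFP+ cells. At 48 hpf 11 retina markers summed to 22.9 to 40.5 CPM in GFP+ and 480 to 627 CPM in GFP− cells. Of liver, 10 markers summed to 560 to 2421 CPM in GFP+ and 11.8 to 51.7 CPM in GFP− cells at 48 hpf. At 72 hpf the liver sums overlapped, at 2490 to 3160 CPM in GFP+ and 1879 to 5166 CPM in GFP− cells. Retina markers then summed to 22.1 to 50.55 CPM in GFP+ and 800 to 1953 CPM in GFP− cells. Cardiomyocyte markers summed to 1632 to 2537 CPM in GFP+ and 341 to 1352 CPM in GFP− cells at 72 hpf.

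Levels are given in CPM, counts scaled to a common TMM-corrected library size (edgeR's CPM), without correction for gene length, so they compare 1 gene between libraries and never 1 gene with another. The log2 fold changes (log2FC) have a standard error (SE) beside them. This SE was worked back from the test, as the absolute log2FC divided by the square root of its F statistic. The padj values come from the quasi-likelihood test of edgeR, adjusted over all genes tested by the method of Benjamini and Hochberg, and a member was called at padj below 0.05. The methods describe a replicate as both fractions at both stages, while a figure legend calls the replicates technical. If they are technical, SE and padj cover technical spread only.

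The comparison of fractions asked which members differ between GFP+ and GFP− cells, each a mixture by the markers above. At 72 hpf, 4 members were higher and 5 lower in GFP+ cells, where 17.0% of all genes were called (6.22% higher and 10.8% lower). The rises were those of *nrp1a*, *sema3fb*, *plxnb2a.1* and *SEMA6C*, and the falls those of *sema3gb*, *NRP2-38446*, *PLXNA4*, *PLXNC1* and *sema7a*. At 48 hpf, 3 members were higher and 6 lower in GFP+ cells, where 28.9% of all genes were called (14.6% higher and 14.4% lower). Those higher were *plxnb2a.2*, *sema3c* and *sema3fb*, and those lower were *sema6ba*, *SEMA5B-61471*, *plxnb3*, *PLXNA2*, *PLXNA3* and *PLXNA4*. The ligand *sema3fb* was called higher and the receptor *PLXNA4* lower at both stages, and 31 members were called at neither. The shares of all genes called at both stages or at neither were not counted.

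In the comparison of fractions, ligands and receptors were set side by side. Of 29 ligands, 2 were higher and 2 lower in GFP+ cells at 72 hpf, and again 2 higher and 2 lower at 48 hpf. Of 18 receptors, 2 were higher and 3 lower at 72 hpf, and 1 was higher and 4 were lower at 48 hpf. The median log2FC was 0.15 for ligands and 0.29 for receptors at 72 hpf, where that of all genes was -0.02, and 0.14 for ligands and -0.41 for receptors at 48 hpf, where that of all genes was 0.03. The share called, 19.1% of the members at either stage, was near that of all genes at 72 hpf and below it at 48 hpf.

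These counts moved with single libraries. At 72 hpf, 9 calls became 14 without replicate 1 of GFP− (4 higher and 10 lower), and with the replicate number as a block they were 14 (7 higher and 7 lower). Of all genes, 18.8% and 19.3% were called in these settings, in the same order. No lower call was left without replicate 1 of GFP+ (4 higher), replicate 2 of GFP+ (2 higher), replicate 2 of GFP− (2 higher) or replicate 3 of GFP− (6 higher), nor when scaled by total counts (2 higher). Of all genes, 1825, 1621, 2557, 2373 and 2099 were lower in these settings, in the same order. Those higher numbered 907, 787, 1515, 1270 and 835. With all libraries and TMM, 1445 were higher and 2499 lower. At 48 hpf, 9 calls became 4 without replicate 1 of GFP+, 5 without replicate 2 of GFP+ and 3 without replicate 3 of GFP−. Of all genes, 2378, 2785 and 2064 were then higher and 2467, 2654 and 2509 lower, in the same order. With all libraries and TMM, 3381 were higher and 3339 lower.

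The comparison of stages asked how members differ between 72 and 48 hpf within a fraction. In GFP+ cells, 2 members were higher and 14 lower at 72 hpf, where 22.9% of all genes were called (11.4% higher and 11.5% lower). In GFP− cells, 3 were higher and 20 lower, where 48.3% of all genes were called (26.1% higher and 22.3% lower). The calls of the members thus lay mostly on the side of a lower level at 72 hpf, while those of all genes were split nearly evenly under TMM scaling. Of the members, 9 were lower at 72 hpf in both fractions, namely *sema3aa*, *sema3b*, *sema3h*, *SEMA5B-75648*, *sema6bb*, *NRP2-38446*, *PLXNA3*, *PLXNA4* and *plxnb3*, and 17 were called in neither fraction. The shares of all genes lower in both fractions or called in neither were not counted.

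Between the stages, 2 of 29 ligands were higher and 9 lower at 72 hpf in GFP+ cells, and 1 was higher and 10 were lower in GFP− cells. Of 18 receptors, none was higher and 5 were lower at 72 hpf in GFP+ cells, and 2 were higher and 10 lower in GFP− cells. The median log2FC in GFP+ cells was -0.48 for ligands, -0.79 for receptors and -0.02 for all genes. Within GFP− cells it was -0.60 for ligands, -1.33 for receptors and 0.14 for all genes. Scaled by total counts instead of TMM, the median of all genes was -0.32 in GFP+ and -0.10 in GFP− cells. No member was then higher and 12 were lower in GFP+ cells, where 5.65% of all genes were higher and 11.7% lower. In GFP− cells 2 members were then higher and 17 lower, where 18.5% of all genes were higher and 20% lower. In GFP+ cells, 16 calls became 10 without replicate 2 of 48 hpf, 10 without replicate 1 of 72 hpf and 8 without replicate 2 of 72 hpf. Of all genes, 1627, 1713 and 1591 were then higher and 1766, 1708 and 1352 lower, in the same order. With all libraries and TMM, 2652 were higher and 2671 lower. In GFP− cells the count of members was 21 (5 higher and 16 lower) without replicate 1 of 72 hpf, where 45.1% of all genes were called.

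**Figure D1:**
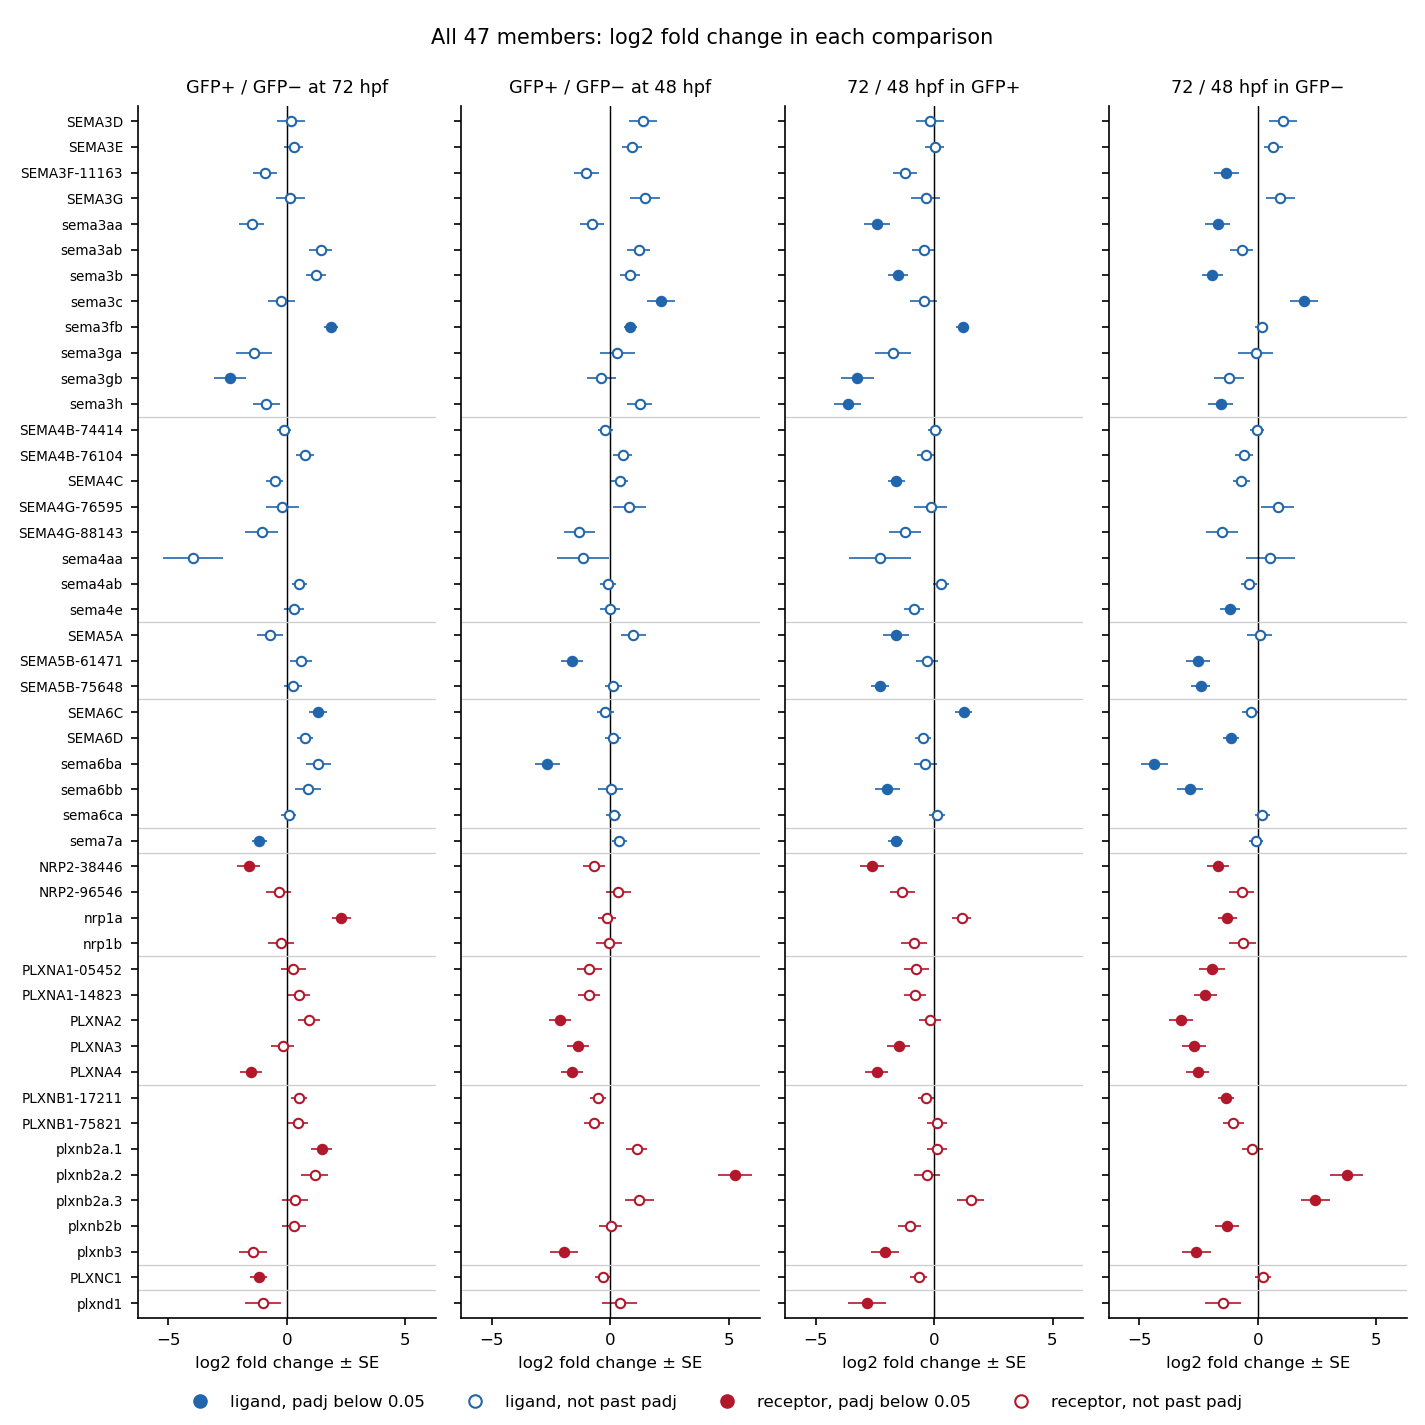
Log2 fold change with its SE (x axis) for each of the 47 members (rows, grouped by class) in the 4 pairwise comparisons (columns), with ligands in blue, receptors in red and filled points for padj below 0.05. Most filled points of the stage columns lie left of 0, and *plxnb2a.2* and *sema6ba* have the most extreme called values.

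The sum over all ligands and the sum over all receptors showed different patterns across the groups. The 29 ligands summed to 554, 651 and 869 CPM in GFP+ and 265, 676 and 704 CPM in GFP− cells at 72 hpf, and to 832, 1188 and 662 CPM in GFP+ and 643, 828 and 603 CPM in GFP− cells at 48 hpf. The 18 receptors summed to 687, 494 and 838 CPM in GFP+ and 142, 519 and 561 CPM in GFP− cells at 72 hpf, and to 788, 1001 and 715 CPM in GFP+ and 1302, 1566 and 1202 CPM in GFP− cells at 48 hpf. Receptor sums were highest in the 3 GFP− libraries of 48 hpf, which did not overlap with any other group, whereas ligand sums of the groups overlapped. The ratio of the ligand to the receptor sum was 1.05 ± 0.26 in GFP+ and 1.48 ± 0.34 in GFP− cells at 72 hpf, and 1.06 ± 0.13 in GFP+ and 0.508 ± 0.018 in GFP− cells at 48 hpf (mean ± SD, n = 3). As the sums are not per length, the ratio can be compared between libraries but does not say which side is more abundant. A single receptor, *nrp1a*, gave 404, 242 and 359 CPM of the receptor sums in GFP+ cells at 72 hpf. It gave 31.3, 101 and 70.3 CPM in GFP− cells of that stage, and 141, 198 and 108 CPM in GFP+ cells at 48 hpf. The ratio in GFP+ cells at 72 hpf thus leans on 1 gene, and it was not computed without that gene.

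The class A plexins, which are part of the receptor sum, summed highest in GFP− cells at 48 hpf. These 5 genes summed to 123, 89.9 and 185 CPM in GFP+ and 33.5, 145 and 166 CPM in GFP− cells at 72 hpf, and to 241, 311 and 222 CPM in GFP+ and 639, 786 and 587 CPM in GFP− cells at 48 hpf. Groups at 72 hpf overlapped, and at 48 hpf they did not. The 4 neuropilins summed to 470, 301 and 509 CPM in GFP+ and 74.0, 270 and 288 CPM in GFP− cells at 72 hpf, which did not overlap. Of these GFP+ sums *nrp1a* alone gave 404, 242 and 359 CPM. At 48 hpf the neuropilins summed to 420, 510 and 366 CPM in GFP+ and 482, 527 and 404 CPM in GFP− cells, which overlapped. The 7 class B plexins summed to 114, 156 and 115 CPM in GFP+ and 162, 234 and 202 CPM in GFP− cells at 48 hpf, which did not overlap. Within these sums *plxnb3* had 27.7, 30.4 and 25.7 CPM in GFP+ and 96.0, 117 and 111 CPM in GFP− cells. The class was not higher in GFP− cells as a group, as 4 of its 7 genes had a log2FC above 0 at 48 hpf.

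**Figure D2:**
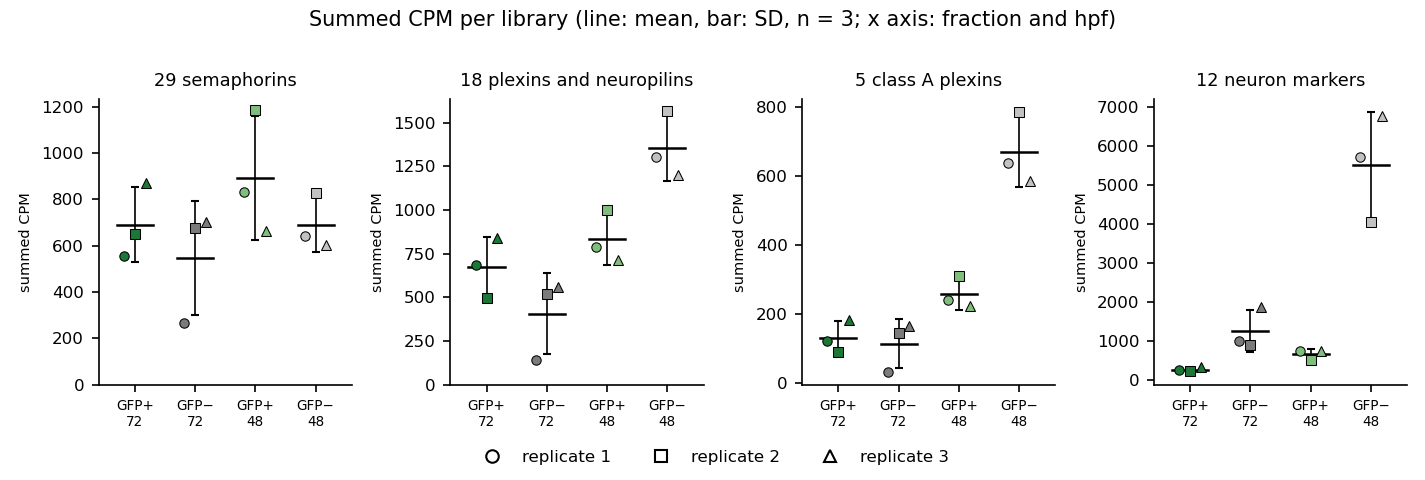
Summed CPM (y axis) of the ligands, the receptors, the class A plexins and the neuron markers in each library, by fraction and stage (x axis), with line and bar for mean and SD (n = 3). The receptors, the class A plexins, which are part of the receptor sum, and the neuron markers are highest in the 3 GFP− libraries of 48 hpf, and the ligands are not.

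Class A plexins are the partners of neuropilins in class 3 semaphorin signalling and receptors of class 6 semaphorins. In GFP− cells all 5 fell between the stages, with a log2FC of 72 against 48 hpf from -3.26 to -1.94 and a median of -2.55, and all 5 remained lower without replicate 1 of GFP− at 72 hpf, at -2.87 to -1.50. At 48 hpf 3 of the 5 were lower in GFP+ than in GFP− cells, with a median log2FC of -1.37, and at 72 hpf 1 was, with a median of 0.28. Within GFP+ cells 2 were lower at 72 than at 48 hpf, with a median of -0.82. Of all genes, 14.4% were lower in GFP+ cells at 48 hpf and 10.8% at 72 hpf. With stage, 22.3% of all genes were lower in GFP− and 11.5% in GFP+ cells. The neuron markers had a median log2FC of -3.38 between the fractions at 72 hpf and again at 48 hpf. Between the stages their median was -1.70 in GFP− and -1.74 in GFP+ cells. All 12 were lower in GFP+ cells at 48 hpf and 10 at 72 hpf, 8 were lower at 72 than at 48 hpf in GFP− cells and 7 in GFP+ cells, and *elavl3*, a defining neuron marker, stood at 1.70 to 13.9 CPM in GFP+ and 59.1 to 274 CPM in GFP− cells at 72 hpf and at 85.9 to 118 CPM in GFP+ and 1268 to 1846 CPM in GFP− cells at 48 hpf. Their part in the differences of the plexins was not tested. In pooled tissue, fewer cells of a type and less RNA per cell cannot be told apart.

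*PLXNA2* (ENSDARG00000060372) had 35.1, 20.6 and 46.5 CPM in GFP+ cells and 5.68, 20.6 and 26.5 CPM in GFP− cells at 72 hpf. Levels at 48 hpf were 34.6, 47.6 and 33.8 CPM in GFP+ cells and 163, 218 and 128 CPM in GFP− cells. Every GFP− library of 48 hpf was above every library of the other 3 groups. At 48 hpf it was lower in GFP+ cells (log2FC -2.13, SE 0.48, padj = 0.0055), while at 72 hpf the log2FC was 0.95 (SE 0.47, padj = 0.20). Between the stages it fell in GFP− cells (log2FC -3.26, SE 0.51, padj = 0.00047), and in GFP+ cells the log2FC was -0.18 (SE 0.47, padj = 0.81).

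*PLXNA4* (ENSDARG00000019328), known for axon guidance with neuropilin 1, had 4.36, 4.34 and 10.2 CPM in GFP+ cells and 7.37, 15.1 and 31.3 CPM in GFP− cells at 72 hpf. Its values at 48 hpf were 35.5, 34.6 and 31.3 CPM in GFP+ cells and 92.1, 100.1 and 123 CPM in GFP− cells. It was lower in GFP+ cells at both stages and lower at 72 hpf in both fractions. The groups of 72 hpf overlapped and those of 48 hpf did not. Between the fractions the log2FC was -1.52 at 72 hpf (SE 0.47, padj = 0.041) and -1.64 at 48 hpf (SE 0.46, padj = 0.019). Between the stages it was -2.43 in GFP+ cells (SE 0.48, padj = 0.0038) and -2.55 in GFP− cells (SE 0.48, padj = 0.0014). The call at 72 hpf was lost without replicate 1 or 2 of GFP+ or 2 or 3 of GFP− (padj 0.052 to 0.16), with a log2FC of -0.85 without replicate 3 of GFP−. The call at 48 hpf was lost without any 1 library of GFP+ or replicate 3 of GFP− (padj 0.054 to 0.067).

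*PLXNA3* (ENSDARG00000007172) had 24.2, 16.4 and 33.4 CPM in GFP+ cells and 7.12, 34.6 and 41.2 CPM in GFP− cells at 72 hpf. At 48 hpf it had 72.4, 73.3 and 61.97 CPM in GFP+ cells and 183, 189 and 164 CPM in GFP− cells. The spread within each group of 48 hpf was small beside the distance between them. At 48 hpf the log2FC between the fractions was -1.37 (SE 0.48, padj = 0.049), and leaving out any 1 of the 6 libraries ended the call (padj 0.085 to 0.14). The fall with stage was -2.69 in GFP− cells (SE 0.51, padj = 0.0013) and -1.49 in GFP+ cells (SE 0.49, padj = 0.043), and the call in GFP+ cells was likewise lost without any 1 of the 6 libraries (padj 0.053 to 0.16). The other 2 class A genes, both named *PLXNA1*, had 6.44 to 53.3 CPM at 72 hpf and 42.4 to 155 CPM at 48 hpf. How their reads were divided between similar copies is uncertain. They passed only in the stage comparison of GFP− cells.

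Class B plexins, receptors mainly of class 4 semaphorins, did not move as a group. Of 7 genes, 1 was higher and none lower in GFP+ cells at 72 hpf, and 1 was higher and 1 lower at 48 hpf. These shares, 14.3% and 28.6%, were near the 17.0% and 28.9% of all genes. In GFP− cells 2 were higher and 3 lower at 72 than at 48 hpf, against 48.3% of all genes called, and in GFP+ cells 1 was lower, against 22.9% of all genes. Among the falls in GFP− cells were those of *PLXNB1-17211* (log2FC -1.36, SE 0.34, padj = 0.0068) and *plxnb2b* (log2FC -1.31, SE 0.50, padj = 0.046). The call of *plxnb2b* was lost without replicate 1 or 2 of either stage (padj 0.089 to 0.17) and with the replicate block (padj = 0.062).

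*plxnb3* (ENSDARG00000032990) had 8.06, 2.65 and 9.26 CPM in GFP+ cells and 3.64, 28.1 and 21.7 CPM in GFP− cells at 72 hpf. The 48 hpf libraries had 27.7, 30.4 and 25.7 CPM in GFP+ cells and 96.0, 117 and 111 CPM in GFP− cells. It was highest in GFP− cells at 48 hpf, with no overlap with any other group. Between the fractions of 48 hpf it was lower in GFP+ cells (log2FC -1.95, SE 0.58, padj = 0.024), a call kept only without replicate 1 of GFP− and lost in the other 5 fits that left out a library (padj 0.056 to 0.081). It fell with stage in GFP− cells (log2FC -2.59, SE 0.60, padj = 0.0042) and in GFP+ cells (log2FC -2.08, SE 0.59, padj = 0.024), where the call was kept only without replicate 3 of 72 hpf (padj 0.050 to 0.094 in the other 5 fits). At 72 hpf the log2FC between the fractions was -1.43 (SE 0.58, padj = 0.12), and without replicate 1 of GFP− it was -1.89 (padj = 0.0037).

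The 3 genes *plxnb2a.1*, *plxnb2a.2* and *plxnb2a.3* follow each other directly in the RefSeq table of assembly GRCz12tu, with no overlap of their spans, and their levels differed in pattern. Reads that fit more than 1 of these like-named copies were divided by the counting, so their separate levels are uncertain. *plxnb2a.1* (ENSDARG00000003811) had 39.9, 52.3 and 69.4 CPM in GFP+ cells and 7.71, 23.8 and 26.5 CPM in GFP− cells at 72 hpf. Levels at 48 hpf were 36.5, 65.5 and 46.2 CPM in GFP+ cells and 19.1, 33.3 and 16.2 CPM in GFP− cells. It was above GFP− in every GFP+ library of the same stage. At 72 hpf it was higher in GFP+ cells (log2FC 1.47, SE 0.45, padj = 0.039), and at 48 hpf the log2FC was 1.11 (SE 0.44, padj = 0.079, and 0.015 with the replicate block). The call at 72 hpf was lost without any 1 library of GFP+ or replicate 2 of GFP− (padj 0.053 to 0.13), and the log2FC was 1.12 without replicate 1 of GFP− (padj = 0.0446).

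*plxnb2a.2* (ENSDARG00000077090) had 3.80, 3.26 and 4.11 CPM in GFP+ cells and 1.101, 1.53 and 2.25 CPM in GFP− cells at 72 hpf. Its values at 48 hpf were 5.68, 3.67 and 4.57 CPM in GFP+ cells and 0.283, 0.0548 and 0 CPM in GFP− cells. In GFP+ cells it was present at both stages, and in GFP− cells of 48 hpf it was nearly absent, with 11, 2 and 0 counts. The log2FC between the fractions was 5.25 at 48 hpf (SE 0.71, padj = 0.000285) and 1.18 at 72 hpf (SE 0.57, padj = 0.18). Within GFP− cells it was higher at 72 than at 48 hpf (log2FC 3.76, SE 0.69, padj = 0.0012). With so few counts in 1 group, these fold changes depend on the prior count of the fit, and between 4.72 and 7.13 was found at 48 hpf when 1 library was left out. *plxnb2a.3* (ENSDARG00000079892) was low throughout, at 0.508 to 2.73 CPM at 72 hpf and 0.154 to 0.885 CPM at 48 hpf, and was higher at 72 than at 48 hpf in GFP− cells (log2FC 2.43, SE 0.60, padj = 0.00615).

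*plxnd1* (ENSDARG00000086057), the endothelial receptor of semaphorin 3E in mouse, had 1.54, 0.538 and 3.01 CPM in GFP+ cells and 0.593, 5.08 and 3.98 CPM in GFP− cells at 72 hpf. At 48 hpf it had 9.34, 19.9 and 6.55 CPM in GFP+ cells and 12.4, 11.8 and 3.00 CPM in GFP− cells. The fractions overlapped at each stage, and in GFP+ cells every library of 72 hpf was below every library of 48 hpf. In GFP+ cells it fell with stage (log2FC -2.84, SE 0.80, padj = 0.023), a call lost without replicate 2 of 48 hpf or replicate 1 or 2 of 72 hpf (padj 0.078 to 0.089). In GFP− cells the log2FC was -1.45 (SE 0.76, padj = 0.13). Of 7 markers of endocardium and endothelium, 1 was lower at 72 than at 48 hpf in GFP+ cells, and their sum was 981 to 1347 CPM at 72 hpf and 1330 to 2374 CPM at 48 hpf. Their part in the fall of *plxnd1* was not tested.

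*PLXNC1* (ENSDARG00000015278), a receptor of semaphorin 7A found on leukocytes in mammals, had 2.92, 3.30 and 3.44 CPM in GFP+ cells and 3.64, 10.4 and 7.76 CPM in GFP− cells at 72 hpf. Its ligand *sema7a* (ENSDARG00000078707) had 1.88, 3.13 and 4.07 CPM in GFP+ cells and 4.83, 7.48 and 7.80 CPM in GFP− cells at that stage. Both lay lower in every GFP+ library. Both were called lower in GFP+ cells, *PLXNC1* with a log2FC of -1.19 (SE 0.35, padj = 0.034) and *sema7a* with a log2FC of -1.16 (SE 0.32, padj = 0.025). The call of *PLXNC1* was kept only without replicate 1 of GFP− (padj 0.063 to 0.12 in the other 5 fits), and that of *sema7a* was lost without replicate 1 or 2 of GFP+ or 2 or 3 of GFP− (padj 0.059 to 0.077). *sema7a* also fell with stage in GFP+ cells (log2FC -1.62, SE 0.32, padj = 0.0039). Leukocyte markers moved alike at 72 hpf. Of 5, 4 were lower in GFP+ cells, and their sum was 3.09 to 8.80 CPM in GFP+ and 47.8 to 120.2 CPM in GFP− cells. Their part in these differences was not tested.

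The 4 neuropilins split. *nrp1a* (ENSDARG00000102153) was highest in GFP+ cells at 72 hpf, *NRP2-38446* was highest in GFP− cells at 48 hpf, and neither *NRP2-96546* nor *nrp1b* was called in any comparison. *nrp1a* had 404, 242 and 359 CPM in GFP+ cells and 31.3, 101 and 70.3 CPM in GFP− cells at 72 hpf. The 48 hpf libraries had 141, 198 and 108 CPM in GFP+ cells and 174, 189.8 and 129.8 CPM in GFP− cells. The fractions overlapped at 48 hpf and lay far apart at 72 hpf, where the GFP+ libraries were above all 9 others. At 72 hpf it was higher in GFP+ cells (log2FC 2.31, SE 0.42, padj = 0.0022), and without replicate 1 of GFP− the log2FC was 1.99 (padj = 0.0011). At 48 hpf the log2FC was -0.14 (SE 0.40, padj = 0.83).

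Between the stages *nrp1a* was called in GFP− cells and not in GFP+ cells. In GFP+ cells the log2FC of 72 against 48 hpf was 1.166 (SE 0.40, padj = 0.053, and 0.046 with the replicate block). Within GFP− cells it fell (log2FC -1.28, SE 0.40, padj = 0.020), a call lost without replicate 1 or 2 of 48 hpf (padj 0.053 and 0.059), and without replicate 1 of GFP− at 72 hpf the log2FC was -0.96 (padj = 0.026). Summed, the markers of smooth muscle and BA were also highest in GFP+ cells at 72 hpf. Their 7 genes summed to 6635 to 7940 CPM in GFP+ and 1642 to 3147 CPM in GFP− cells at 72 hpf, and to 123 to 153 CPM in GFP+ and 22.6 to 41.7 CPM in GFP− cells at 48 hpf. Of them, 3 were higher in GFP+ cells at 72 hpf and 4 at 48 hpf, and all 7 were higher at 72 than at 48 hpf in both fractions. In GFP+ cells at 72 hpf *fbln5* entered the sum with 5839, 5730 and 4211 CPM. Between the fractions at 72 hpf *tagln* (log2FC -1.66), *acta2* (log2FC -0.33) and *cnn1b* (log2FC -0.14) were not higher in GFP+ cells. *myh11a* (log2FC 1.37) was not called there. The part of these markers in the level of *nrp1a* was not tested.

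*NRP2-38446* (ENSDARG00000038446) had 11.9, 10.9 and 24.1 CPM in GFP+ cells and 14.7, 64.3 and 64.0 CPM in GFP− cells at 72 hpf. Levels at 48 hpf were 89.7, 81.0 and 117 CPM in GFP+ cells and 161, 159 and 139.6 CPM in GFP− cells. It fell with stage in both fractions, with a log2FC of -2.62 in GFP+ cells (SE 0.50, padj = 0.0030) and -1.68 in GFP− cells (SE 0.48, padj = 0.012), and no library of 72 hpf reached the 48 hpf libraries of its fraction. At 72 hpf the fractions overlapped by 1 library, and it was lower in GFP+ cells (log2FC -1.61, SE 0.48, padj = 0.035), a call lost without replicate 1 or 2 of GFP+ or 2 or 3 of GFP− (padj 0.0887 to 0.145), while without replicate 1 of GFP− the log2FC was -2.02 (padj = 0.00057).

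The other neuropilin 2 gene, *NRP2-96546* (ENSDARG00000096546), had 45.5, 40.0 and 112 CPM in GFP+ cells and 24.1, 84.8 and 139.6 CPM in GFP− cells at 72 hpf. Its values at 48 hpf were 172, 204 and 127 CPM in GFP+ cells and 131, 144 and 126 CPM in GFP− cells. Every GFP+ library of 72 hpf was below those of 48 hpf, with a log2FC of -1.35 (SE 0.54, padj = 0.088). *nrp1b* (ENSDARG00000027290) had 8.60, 9.04 and 14.3 CPM in GFP+ cells and 3.81, 19.7 and 14.3 CPM in GFP− cells at 72 hpf, and 16.5, 26.3 and 14.3 CPM in GFP+ cells and 16.8, 33.9 and 9.12 CPM in GFP− cells at 48 hpf. Its log2FC ranged from -0.84 to -0.06 over the 4 comparisons, and the spread within groups was as large as the distance between them.

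**Figure D3:**
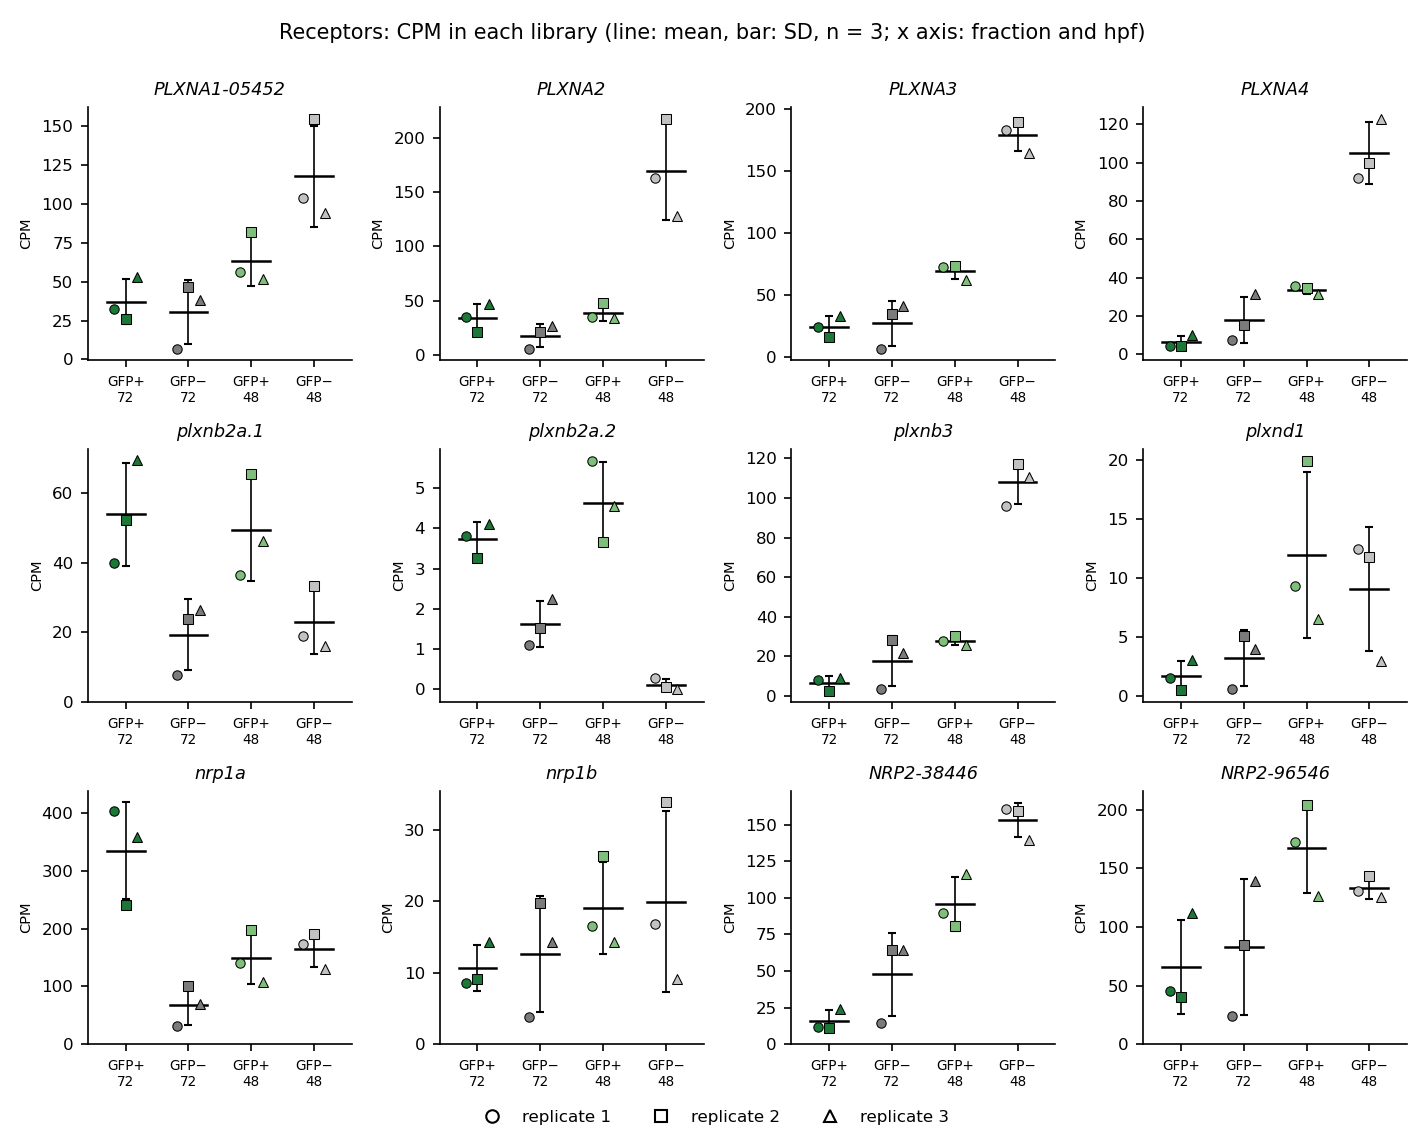
CPM (y axis, from 0 or just below) of 12 receptors in each library, by fraction and stage (x axis), with line and bar for mean and SD (n = 3) and 1 symbol per replicate number. *PLXNA2*, *PLXNA3*, *PLXNA4* and *plxnb3* stand highest in the 3 GFP− libraries of 48 hpf, *nrp1a* in the 3 GFP+ libraries of 72 hpf, and *plxnb2a.2* is near 0 in GFP− at 48 hpf.

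Among the 12 secreted class 3 ligands, 1 was higher and 1 lower in GFP+ cells at 72 hpf, and 2 were higher and none lower at 48 hpf. In GFP+ cells 1 was higher and 4 were lower at 72 than at 48 hpf, and in GFP− cells again 1 was higher and 4 were lower. The share called was 16.7% at either stage, where 17.0% of all genes were called at 72 hpf and 28.9% at 48 hpf, and it was 41.7% between the stages in either fraction, where 22.9% of all genes were called in GFP+ and 48.3% in GFP− cells. *sema3fb* (ENSDARG00000055373), of a type that in mammals acts mainly through neuropilin 2, had 71.0, 107 and 119 CPM in GFP+ cells and 19.1, 31.2 and 30.7 CPM in GFP− cells at 72 hpf. At 48 hpf it had 46.97, 43.3 and 39.1 CPM in GFP+ cells and 23.6, 27.5 and 21.4 CPM in GFP− cells. All GFP+ libraries lay above all GFP− libraries, and within GFP+ those of 72 hpf lay above those of 48 hpf. It was higher in GFP+ cells at 72 hpf (log2FC 1.88, SE 0.29, padj = 0.00079) and at 48 hpf (log2FC 0.84, SE 0.28, padj = 0.039), and higher at 72 than at 48 hpf in GFP+ cells (log2FC 1.201, SE 0.28, padj = 0.0092). The call at 48 hpf was lost without any 1 of the 6 libraries (padj 0.061 to 0.13). The call at 72 hpf was kept in all 6 such fits, and scaled by total counts the rise with stage in GFP+ cells had padj = 0.14.

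*sema3c* (ENSDARG00000034300), the ligand tied to the outflow tract in mouse, was nearest to absent in GFP− cells at 48 hpf. It had 4.31, 3.99 and 7.91 CPM in GFP+ cells and 1.27, 7.94 and 9.499 CPM in GFP− cells at 72 hpf, and 5.996, 8.93 and 6.97 CPM in GFP+ cells and 1.05, 2.44 and 1.45 CPM in GFP− cells at 48 hpf. The fractions overlapped at 72 hpf and did not at 48 hpf. At 48 hpf it was higher in GFP+ cells (log2FC 2.15, SE 0.59, padj = 0.016), a call lost without replicate 1 or 3 of GFP− (padj 0.070 and 0.064). In GFP− cells it was higher at 72 than at 48 hpf (log2FC 1.94, SE 0.59, padj = 0.017). That call was lost without replicate 1 or 3 of 48 hpf or replicate 3 of 72 hpf (padj 0.052 to 0.069), and without replicate 1 of 72 hpf the log2FC was 2.39 (padj = 0.00061).

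*sema3gb* (ENSDARG00000013607) had 0.579, 1.06 and 2.57 CPM in GFP+ cells and 1.69, 10.8 and 8.75 CPM in GFP− cells at 72 hpf. The 48 hpf libraries had 7.84, 20.4 and 10.6 CPM in GFP+ cells and 14.5, 23.9 and 12.3 CPM in GFP− cells. It fell with stage in GFP+ cells to a level below every 48 hpf library (log2FC -3.24, SE 0.69, padj = 0.0058). At 72 hpf it was lower in GFP+ cells (log2FC -2.40, SE 0.67, padj = 0.027), lost without replicate 1 or 2 of GFP+ or 2 or 3 of GFP− (padj 0.057 to 0.11), and without replicate 1 of GFP− the log2FC was -2.84 (padj = 0.0031). Of the same class, *sema3h*, *sema3aa* and *sema3b* also fell with stage in GFP+ cells, with a log2FC of -3.65 (SE 0.57), -2.40 (SE 0.55) and -1.52 (SE 0.43) and a padj of 0.0011, 0.0085 and 0.023. The call of *sema3b* was lost without replicate 2 of 48 hpf or 1 or 2 of 72 hpf (padj 0.064 to 0.10). In GFP− cells *sema3b*, *sema3aa*, *sema3h* and *SEMA3F-11163* fell, with a log2FC of -1.92, -1.70, -1.56 and -1.33, and a padj of 0.0039, 0.020, 0.029 and 0.048. *sema3aa* lost this call without replicate 2 of 48 hpf (padj = 0.059), and *sema3h* without replicate 1 or 2 of 48 hpf or 1 of 72 hpf (padj 0.056 to 0.096). *SEMA3F-11163* kept it only without replicate 3 of 72 hpf (padj 0.069 to 0.13 in the other 5 fits).

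The remaining class 3 ligands were called in no comparison. *SEMA3D* (ENSDARG00000017369) had 99.3, 67.5 and 99.3 CPM in GFP+ cells and 44.0, 98.5 and 94.3 CPM in GFP− cells at 72 hpf, and 67.4, 204 and 27.4 CPM in GFP+ cells and 41.2, 51.5 and 21.5 CPM in GFP− cells at 48 hpf. In GFP+ cells of 48 hpf its spread was the widest among the groups. *SEMA3E* (ENSDARG00000036571), whose mouse product binds plexin D1, had 10.97, 12.02 and 19.5 CPM in GFP+ cells and 4.32, 14.4 and 15.7 CPM in GFP− cells at 72 hpf, and 15.4, 13.6 and 12.7 CPM in GFP+ cells and 7.32, 8.64 and 6.13 CPM in GFP− cells at 48 hpf. Between the stages its log2FC in GFP+ cells was 0.03 (SE 0.41, padj = 0.97), and the difference from the fall of *plxnd1* was not tested. *SEMA3G* (ENSDARG00000007560) had 47.2, 74.8 and 133 CPM in GFP+ cells and 12.8, 109.9 and 106 CPM in GFP− cells at 72 hpf, and 93.7, 164 and 69.5 CPM in GFP+ cells and 36.9, 49.2 and 32.0 CPM in GFP− cells at 48 hpf. At 48 hpf the groups of both *SEMA3E* and *SEMA3G* did not overlap, with a log2FC of 0.92 (SE 0.41, padj = 0.12) and of 1.47 (SE 0.63, padj = 0.10, and 0.027 with the replicate block).

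Pairing libraries of the same replicate number added calls between the fractions among class 3 ligands. With the block, *sema3ab* was higher in GFP+ cells at 72 hpf (block padj = 0.019) and 48 hpf (block padj = 0.025), *sema3b* higher at 72 hpf (block padj = 0.014), *sema3aa* lower at 72 hpf (block padj = 0.011) and *SEMA3F-11163* lower at 48 hpf (block padj = 0.022). In the unpaired fit their padj was 0.066, 0.086, 0.070, 0.079 and 0.16 in the same order.

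Class 4 to 7 semaphorins are bound to the membrane. None of the 8 class 4 semaphorins passed in either fraction comparison, where 17.0% of all genes were called at 72 hpf and 28.9% at 48 hpf. *SEMA4C* (ENSDARG00000079611), whose receptors in mammals are class B plexins, had 41.4, 29.8 and 49.8 CPM in GFP+ cells and 28.9, 72.6 and 70.4 CPM in GFP− cells at 72 hpf, and 123, 148 and 93.7 CPM in GFP+ cells and 93.1, 115 and 70.3 CPM in GFP− cells at 48 hpf. Within GFP+ cells it fell with stage to below every 48 hpf library (log2FC -1.59, SE 0.37, padj = 0.0093), which was lost without replicate 2 of 72 hpf (padj = 0.053). In GFP− cells the log2FC was -0.70 (SE 0.37, padj = 0.13). *sema4e* fell in GFP− cells (log2FC -1.17, SE 0.42, padj = 0.035) but not without replicate 3 of 48 hpf or 1 or 2 of 72 hpf (padj 0.051 to 0.18). The other 6 class 4 genes were called nowhere, where 63.3% of all genes were called in at least 1 of the 5 comparisons.

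Class 5 semaphorins carry thrombospondin repeats and bind class A plexins in mammals. *SEMA5B-61471* (ENSDARG00000061471) had 2.86, 1.08 and 2.73 CPM in GFP+ cells and 0.678, 1.24 and 2.35 CPM in GFP− cells at 72 hpf. Levels at 48 hpf were 2.21, 3.06 and 2.83 CPM in GFP+ cells and 5.76, 10.4 and 9.06 CPM in GFP− cells. It was high only in the 3 GFP− libraries of 48 hpf, as *PLXNA2* was. Between the fractions of 48 hpf it was lower in GFP+ cells (log2FC -1.64, SE 0.47, padj = 0.019), lost without replicate 1 or 3 of GFP+ or 2 or 3 of GFP− (padj 0.056 to 0.077), and in GFP− cells it fell with stage (log2FC -2.52, SE 0.49, padj = 0.0016). *SEMA5B-75648* fell in both fractions, with a log2FC of -2.29 in GFP+ cells (SE 0.39, padj = 0.0016) and -2.41 in GFP− cells (SE 0.39, padj = 0.00059). *SEMA5A* fell in GFP+ cells at the edge of the threshold (log2FC -1.60, SE 0.54, padj = 0.0499), which held in 1 of the 6 fits that left out a library, that without replicate 3 of 72 hpf (padj up to 0.18 in the others).

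Class 6 semaphorins are ligands of class A plexins and also signal backwards through their own tails. *sema6ba* (ENSDARG00000036626) had 0.978, 0.710 and 1.74 CPM in GFP+ cells and 0.0847, 0.392 and 0.749 CPM in GFP− cells at 72 hpf. Its values at 48 hpf were 1.34, 1.94 and 1.06 CPM in GFP+ cells and 9.30, 7.13 and 11.2 CPM in GFP− cells. It was high in the 3 GFP− libraries of 48 hpf alone. At 48 hpf it was lower in GFP+ cells (log2FC -2.66, SE 0.51, padj = 0.0020), and in GFP− cells it fell with stage (log2FC -4.36, SE 0.57, padj = 0.00018). Between the fractions at 72 hpf the log2FC was 1.34 (SE 0.54, padj = 0.11), and in GFP+ cells that between the stages was -0.37 (SE 0.50, padj = 0.64).

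*SEMA6C* (ENSDARG00000000189) had 54.8, 97.5 and 110.4 CPM in GFP+ cells and 19.7, 35.9 and 49.4 CPM in GFP− cells at 72 hpf. Levels at 48 hpf were 35.3, 45.4 and 30.2 CPM in GFP+ cells and 39.0, 50.9 and 39.5 CPM in GFP− cells. Like *nrp1a*, it was highest in the GFP+ libraries of 72 hpf. At 72 hpf it was higher in GFP+ cells (log2FC 1.32, SE 0.36, padj = 0.024), lost without replicate 2 or 3 of GFP+ or 2 of GFP− (padj 0.053 to 0.092), and without replicate 1 of GFP− the log2FC was 1.06 (padj = 0.031). In GFP+ cells it was higher at 72 than at 48 hpf (log2FC 1.24, SE 0.36, padj = 0.026), lost without replicate 1 or 3 of 48 hpf or 2 or 3 of 72 hpf (padj 0.083 to 0.10) and, scaled by total counts, at padj = 0.20.

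*sema6bb* (ENSDARG00000061976) had 1.03, 1.46 and 2.53 CPM in GFP+ cells and 0.169, 1.00 and 1.33 CPM in GFP− cells at 72 hpf, and 6.05, 8.38 and 5.06 CPM in GFP+ cells and 7.02, 8.58 and 3.82 CPM in GFP− cells at 48 hpf. It differed by stage and not detectably by fraction. It fell with stage in GFP− cells (log2FC -2.86, SE 0.57, padj = 0.0018) and in GFP+ cells (log2FC -1.97, SE 0.54, padj = 0.020), where the call was lost without replicate 2 of 48 hpf or 1 or 2 of 72 hpf (padj 0.069 to 0.080). *SEMA6D* (ENSDARG00000011533), which in chick steers endocardial and myocardial cells through *PLXNA1*, had 28.2, 31.5 and 32.7 CPM in GFP+ cells and 7.79, 24.7 and 21.7 CPM in GFP− cells at 72 hpf, and 40.5, 45.2 and 43.5 CPM in GFP+ cells and 35.4, 45.7 and 38.0 CPM in GFP− cells at 48 hpf. Within GFP− cells it fell with stage (log2FC -1.13, SE 0.35, padj = 0.018), lost without replicate 2 of 48 hpf (padj = 0.059), and without replicate 1 of 72 hpf the log2FC was -0.79 (padj = 0.0068). In GFP+ cells the log2FC was -0.48 (SE 0.34, padj = 0.34).

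**Figure D4:**
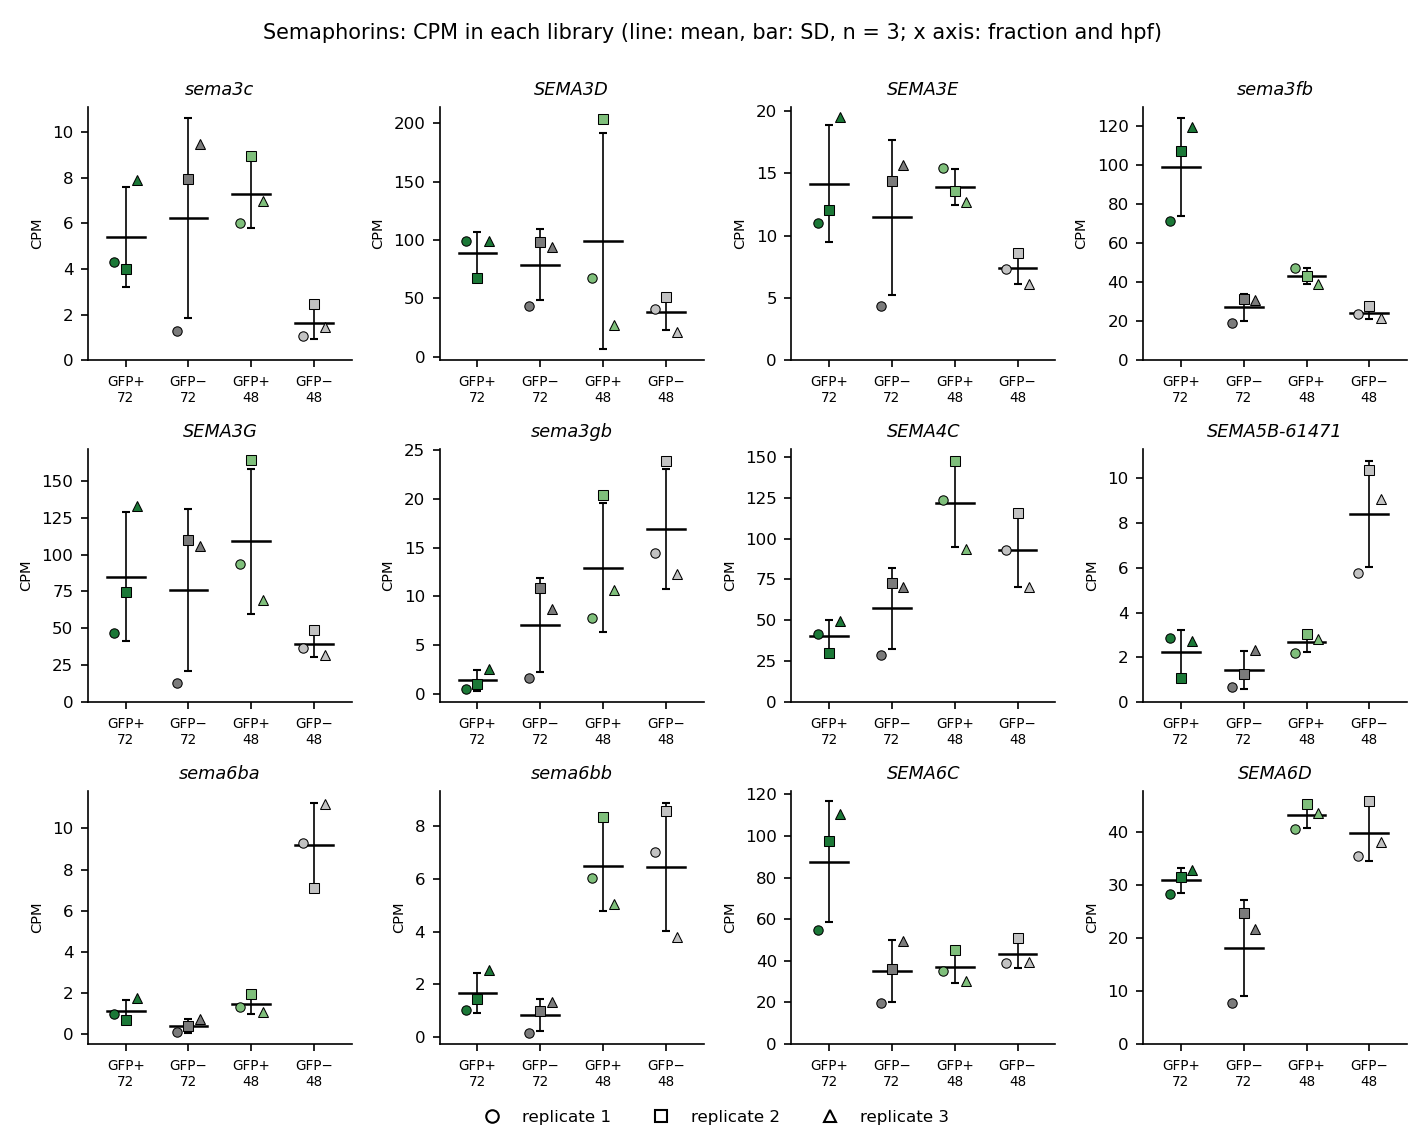
CPM (y axis, from 0 or just below) of 12 semaphorins in each library, by fraction and stage (x axis), with line and bar for mean and SD (n = 3) and 1 symbol per replicate number. *sema6ba* and *SEMA5B-61471* stand highest in the 3 GFP− libraries of 48 hpf and *sema3fb* and *SEMA6C* in the 3 GFP+ libraries of 72 hpf.

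The interaction asked whether the difference between the fractions itself changed with stage, as the GFP+ to GFP− log2FC at 72 hpf minus that at 48 hpf. It was called for 4 members (8.51%), 3 with a positive and 1 with a negative value. This share was near the 8.17% of all genes called (2.47% positive and 5.7% negative). The value was 3.997 for *sema6ba* (SE 0.74, padj = 0.0082), 3.08 for *PLXNA2* (SE 0.67, padj = 0.016), 2.45 for *nrp1a* (SE 0.57, padj = 0.021) and -4.08 for *plxnb2a.2* (SE 0.88, padj = 0.016). Of these, *sema6ba*, *PLXNA2* and *plxnb2a.2* were called between the fractions at 48 hpf and not at 72 hpf, and *nrp1a* at 72 hpf and not at 48 hpf. Without replicate 1 of GFP− at 72 hpf all 4 kept the call, with values of 3.68, 2.69, 2.13 and -4.23 in the same order, and 8 members in all were called (3 positive and 5 negative), *sema3c*, *sema3gb*, *SEMA5A* and *sema7a* being added with negative values. Of all genes, 11.1% were called in that fit. The call of *nrp1a* was lost without replicate 1 or 3 of GFP+ at 48 hpf, replicate 1 of GFP− at 48 hpf or replicate 1 of GFP+ at 72 hpf (padj 0.053 to 0.063). Of the other 43 members, *sema7a* came nearest (value -1.54, SE 0.45, padj = 0.052, and 0.047 with the replicate block).

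Genes known to carry semaphorin signals inside the cell, 25 in a list of collapsin response mediators, Mical oxidases, GTPase regulators, kinases and co-receptors, were counted in the same comparisons. Of them, 1 was higher and 6 were lower in GFP+ cells at 72 hpf, and 2 were higher and 11 lower at 48 hpf, with a median log2FC of 0.08 at 72 hpf and -0.92 at 48 hpf. The share called was 28.0% at 72 hpf and 52.0% at 48 hpf, where 17.0% and 28.9% of all genes were called, and in the interaction it was 8.0%, where 8.17% of all genes were called. At 48 hpf those lower included *dpysl3* (log2FC -3.14), *crmp1* (log2FC -3.77) and the kinase *fyna* (log2FC -3.68), genes also used by neurons, and those higher were *mical2b* (log2FC 1.84) and *met* (log2FC 2.15), a growth factor receptor that associates with class B plexins in mammals. At 72 hpf *mical2a* was the 1 gene higher in GFP+ cells (log2FC 2.40). Between the stages 3 were higher and 8 lower at 72 hpf in GFP+ cells, and 2 were higher and 12 lower in GFP− cells. That was 44.0% of the list in GFP+ and 56.0% in GFP− cells, where 22.9% and 48.3% of all genes were called. The neuron markers moved in the same comparisons, as given above, and their part was not tested.

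Of the VEGF family, which shares neuropilins with the class 3 semaphorins, 10 ligand and receptor genes were tested, of which 20% were called at 72 hpf and 30% at 48 hpf, near the 17.0% and 28.9% of all genes. At 72 hpf 1 was higher and 1 lower in GFP+ cells, *vegfaa* (log2FC 1.01, padj = 0.047) and *flt1* (log2FC -2.09, padj = 0.0056), and at 48 hpf 3 were higher, *vegfab* (log2FC 1.02, padj = 0.014), *vegfd* (log2FC 1.73, padj = 0.0058) and *flt4* (log2FC 1.55, padj = 0.017). Between the stages 1 was higher and 2 were lower at 72 hpf in GFP+ cells, *flt1* (log2FC -2.85) and *vegfab* (log2FC -1.05). In GFP− cells 4 were higher and none lower. That was 30% of the family in GFP+ and 40% in GFP− cells, where 22.9% and 48.3% of all genes were called. *vegfaa*, the main ligand, was higher at 72 than at 48 hpf in both fractions, by a log2FC of 2.67 in GFP+ and 2.55 in GFP− cells. It had 328, 316 and 152 CPM in GFP+ cells and 136, 149.9 and 109 CPM in GFP− cells at 72 hpf, and 44.5, 32.6 and 48.2 CPM in GFP+ cells and 18.9, 21.7 and 26.8 CPM in GFP− cells at 48 hpf.

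Across all 5 comparisons, 32 members were called at least once and 15 never. The share called at least once was 68.1% of the members and 63.3% of all genes tested. By group mean, 15 of 29 ligands were highest in GFP+ cells at 48 hpf, 8 in GFP− cells at 48 hpf, 5 in GFP+ cells at 72 hpf and 1 in GFP− cells at 72 hpf. Of 18 receptors, 10 were highest in GFP− cells at 48 hpf, 4 in GFP+ cells at 48 hpf, 3 in GFP+ cells at 72 hpf and 1 in GFP− cells at 72 hpf. Without replicate 1 of GFP− at 72 hpf the ligands numbered 12, 8, 3 and 6 and the receptors 10, 4, 2 and 2, in the same order of groups. These are descriptions of means with no test, and the shares of all genes highest in each group were not counted.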

How the data were processed

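RNA was measured in 12 libraries of sorted *sqet31Et* heart cells, 3 for each of 4 groups taken from the sample titles. Polyadenylated RNA was amplified with an unstranded SMART-Seq v4 kit. The authors trimmed reads with Cutadapt 1.17 and quantified transcripts with Salmon 0.9.1 on GRCz11, and deposited estimated counts per gene, unnormalized and already rounded to whole numbers.

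Genes were filtered with filterByExpr and fitted over all 4 groups with TMM scaling and edgeR 4.0.16 quasi-likelihood tests (R 4.3.3, limma 3.58.1). P-values were adjusted by Benjamini-Hochberg over 23222 genes, with a threshold of 0.05 and no fold limit. DESeq2 1.42.0 was an alternative, as were other scalings and filters, the replicate block, fits of only 2 groups and leaving out each library. The scripts were tested on simulated data. No 2 of the 12 libraries were identical.

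Values per library are given for members called in the interaction, for the 3 largest rises and 3 largest falls in each pairwise comparison among called members whose mean log2 CPM was 1 or more, for the 4 ligands and 4 receptors of highest mean CPM, and for cardiovascular members (*plxnd1*, *sema3c*, *SEMA3D*, *SEMA3E*, *SEMA6D* and the neuropilins). *PLXNC1*, *sema7a* and *sema3ab* were added after their values were seen. Members and lists were chosen with earlier results of these data known. By the methods, a replicate number joins both fractions and both stages. Departures from the group mean, compared across genes between the GFP+ and GFP− library of one number, correlated at 0.0975, 0.314 and 0.157 at 48 hpf and at 0.338, -0.0823 and 0.369 at 72 hpf. Fractions of unlike number correlated at -0.245 to 0.0987 at 48 hpf and at -0.388 to 0.193 at 72 hpf. Between the stages, libraries of one number correlated at -0.0022, 0.0136 and -0.114 in GFP+ and at 0.0900, 0.277 and 0.0024 in GFP− cells. Symbols came from the tables of gene names, and 32 of the 47 members were found in the RefSeq table of GRCz12tu, which is another build, so no coordinates are given.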

Additional observations from a re-analysis of the deposited data

Results flagged for a closer look

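The difference between GFP+ and GFP− cells itself differed between the stages for 4 members, by the interaction term of edgeR's quasi-likelihood fit. That was 8.51% of the members, near the 8.17% of all genes called. The value, the GFP+ to GFP− log2FC at 72 hpf minus that at 48 hpf, was 3.9973 for *sema6ba*, 3.0764 for *PLXNA2*, 2.4477 for *nrp1a* and -4.0764 for *plxnb2a.2*. Over all settings tried, padj ran up to 0.028 for *sema6ba*, 0.048 for *plxnb2a.2*, 0.074 for *PLXNA2* and 0.091 for *nrp1a*. The *plxnb2a.2* value rests on 11, 2 and 0 counts in GFP− cells at 48 hpf.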

How the results depend on the processing

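Scaled by total counts, 4 members were called between the fractions at 48 hpf, 2 at 72 hpf and 2 in the interaction, where *PLXNA2* and *nrp1a* were lost. Of all genes, 22.7%, 12.6% and 5.11% were called, in the same order. DESeq2 called 14 at 72 hpf and 10 in the interaction, where it called 23.6% and 16.6% of all genes. A fit of only the 2 groups called 18 at 48 hpf and 2 at 72 hpf. Of 21857 genes tested in that fit at 48 hpf, 4899 were higher and 4769 lower. At 72 hpf, 710 were higher and 1631 lower of 21986. The replicate block called 14 at 72 hpf, and 13 at 48 hpf, 18 between stages in GFP+ cells, 25 in GFP− cells and 5 in the interaction. Of all genes it called 19.3%, 32.8%, 23.7%, 48.5% and 8.73%, in the same order. Apart from the block values given beside single genes, it added *SEMA4B-76104* and *sema4aa* at 72 hpf, *SEMA3F-11163* between stages in GFP+ cells, and *sema3gb*, *SEMA4G-88143* and *PLXNB1-75821* in GFP− cells, and changed no other call. Leaving out 1 library gave 3 to 7 calls at 48 hpf, 2 to 14 at 72 hpf, 8 to 15 between stages in GFP+ cells, 17 to 24 in GFP− cells and 3 to 8 in the interaction. The calls of all genes moved in these fits too. At 48 hpf 2064 to 2862 genes were higher and 2467 to 2883 lower. At 72 hpf these were 787 to 1700 and 1621 to 2773. Between stages they were 1591 to 2127 and 1352 to 2076 in GFP+ cells. In GFP− cells they were 4687 to 6398 and 4195 to 5656. For the interaction 286 to 1461 were positive and 664 to 2103 negative. Calls of members kept under every alternative numbered 3 of 9 at 48 hpf, 2 of 9 at 72 hpf, 7 of 16 in GFP+ cells, 15 of 23 in GFP− cells and 2 of 4 in the interaction. How many calls of all genes were so kept was not counted. No called member reversed. The cause of these shifts was not tested. Depth limits *plxnb2a.2*, *sema4aa*, *sema6ba*, *sema6bb*, *sema3ga* and *SEMA4G-76595*, which had 3 counts or fewer in at least 1 library.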

Other observations

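In the RefSeq table of GRCz12tu, *sema3ab* and *SEMA3E* follow each other directly, with 3 genes between *SEMA3D* and *sema3ab*. *sema3ab* had 27.4, 24.6 and 28.8 CPM in GFP+ cells and 4.24, 14.1 and 11.3 CPM in GFP− cells at 72 hpf, and 24.4, 55.3 and 29.9 CPM in GFP+ cells and 12.4, 26.9 and 8.46 CPM in GFP− cells at 48 hpf. *sema4aa* had the lowest log2FC of all members between the fractions at 72 hpf, -3.96 (SE 1.28, padj = 0.051 by edgeR), on levels of at most 1.18 CPM in any library.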
